A study of Mus musculus with 12 samples.

Results

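The genes described here are 7 inhibitory checkpoint genes of the mouse, Tigit, Pdcd1, Ctla4, Btla, Lag3, Cd274 and Cd200. They were taken by symbol from the deposited table of all genes, as a list chosen with earlier results of these data known. All 7 were among the 12704 genes with enough reads to be tested, 1515 others being too low. The RNA came from bone marrow plasma cells sorted from C57BL/6 mice that carried the BLTcre.mcl1fl/+ reporter. All mice had received tamoxifen, which switched on a human CD4 reporter, and all carried a floxed Mcl1 allele beside a normal one. Human CD4+ cells (marked) and human CD4- cells (unmarked) were sorted 60 or 270 days after tamoxifen, which gave 4 groups of 3 libraries: day 60 unmarked, day 60 marked, day 270 unmarked and day 270 marked. Comparing marked with unmarked cells asks how plasma cells that carried the reporter through that time differed from those that did not, a question of plasma cell lifespan in the words of the series title. The labels do not say whether the switch also removed the floxed Mcl1 allele in marked cells, so any effect of that allele and of marking cannot be told apart. The age of the mice, the sort gates and whether each replicate was a separate animal are not stated, and p-values therefore measure only the spread between these libraries. Within a day, marked and unmarked libraries of the same replicate number share a specimen number.

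Checkpoint receptors are surface proteins of lymphocytes that dampen activation when they meet a ligand on another cell. Most carry tyrosine motifs in their cytoplasmic tails that recruit phosphatases, and these reverse the phosphorylation set off by antigen and costimulatory receptors. They are best known from exhausted and regulatory T cells, but B cells and plasma cells also carry some of them, and LAG3 has been used to mark a regulatory subset of plasma cells. In this set, TIGIT, PD-1 (Pdcd1), CTLA4, BTLA and LAG3 are the receptors. The other members, PD-L1 (Cd274) and CD200, are ligands that engage PD-1 and the CD200 receptor on other cells, so the name checkpoint receptor covers them only loosely.

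In the GENCODE M21 annotation of GRCm38, Tigit (ENSMUSG00000071552) lies at chr16:43648867-43664146 on the minus strand, with 919 bases of exon. Pdcd1 (ENSMUSG00000026285, 1930 bases of exon) lies at chr1:94038305-94052553 on the minus strand, and Ctla4 (ENSMUSG00000026011, 2330 bases) at chr1:60887000-60915832 on the plus strand. Btla (ENSMUSG00000052013, 3396 bases) lies at chr16:45224315-45257670 on the plus strand, close to Cd200 (ENSMUSG00000022661, 3321 bases) at chr16:45382135-45409053 on the minus strand. Lag3 (ENSMUSG00000030124, 2109 bases) lies at chr6:124904361-124911705 on the minus strand, and Cd274 (ENSMUSG00000016496, 3622 bases) at chr19:29367455-29388095 on the plus strand. Exons of Cd274 overlap those of an antisense model, AC119228.1, and since no source used here says whether counting was by strand, reads of the pair cannot be told apart. A ribosomal protein pseudogene, Rpl18-ps1, lies within Ctla4 but shares no exon with it.

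The promoters of Tigit, Pdcd1 and Ctla4 are shown because these 3 members were the ones called lower in marked cells. Each sequence is the 250 bases upstream of the RefSeq start of the gene (GRCm38.p6), 5′ to 3′ on the strand of the gene. Capitals mark the letters GAAAG, the core of sites bound by Blimp-1, the repressor that drives plasma cell differentiation, and GGAAAA, the core of sites bound by NFAT, a calcium-activated factor of lymphocytes. Either may stand on either strand, as CTTTC or TTTTCC. The windows are chr16:43664185-43664434 for Tigit, chr1:94052554-94052803 for Pdcd1 and chr1:60908775-60909024 for Ctla4.
Tigit: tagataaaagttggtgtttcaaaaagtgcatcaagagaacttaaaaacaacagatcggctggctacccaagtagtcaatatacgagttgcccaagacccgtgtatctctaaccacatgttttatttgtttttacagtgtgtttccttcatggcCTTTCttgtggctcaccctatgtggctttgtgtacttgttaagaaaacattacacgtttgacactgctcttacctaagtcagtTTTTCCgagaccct
Pdcd1: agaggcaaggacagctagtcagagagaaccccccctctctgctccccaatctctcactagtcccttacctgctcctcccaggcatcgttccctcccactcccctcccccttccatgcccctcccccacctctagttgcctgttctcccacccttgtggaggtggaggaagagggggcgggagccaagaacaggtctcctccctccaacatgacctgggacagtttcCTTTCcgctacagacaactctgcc
Ctla4: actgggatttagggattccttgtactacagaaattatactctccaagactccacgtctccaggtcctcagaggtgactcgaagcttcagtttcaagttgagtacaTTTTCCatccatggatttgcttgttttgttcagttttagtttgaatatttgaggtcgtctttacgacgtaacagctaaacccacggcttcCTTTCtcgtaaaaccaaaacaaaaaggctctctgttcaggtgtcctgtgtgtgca
The RefSeq start used for Ctla4 lies 22025 bases downstream of the outermost GENCODE start, while that of Pdcd1 is the same in both annotations and that of Tigit lies 38 bases further upstream. GAAAG occurred once in each of these windows and in those of Btla and Cd200, and was not found in that of Cd274, against 51.4% of 27025 promoters of this length. GGAAAA occurred in the windows of Tigit and Ctla4 and in none of the other 4 examined, against 20.6% of promoters. In these sequences the matches of the pair of motifs do not overlap. The AP-1 motif TGANTCA (6.87% of promoters), the TATA motif TATAAA (13%), the ETS motif CCGGAAG (7.05%), an interferon response element (3.04%) and an NF-kB motif (17.3%) were found on neither strand in any of the 6 windows. The E box CANNTG (66%) was in all windows but that of Pdcd1, the GC box GGGCGG (32.9%) in those of Pdcd1, Cd274 and Cd200, and CCAAT (34.5%) and AGGTCA (13.8%) in that of Pdcd1 alone. These matches describe the letters only. Lag3 was named without a promoter sequence.

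Values are CPM, reads per library scaled to the same total over the genes of the table, and library totals ran from 7449468 to 15943547 reads. The table's genes with at least 1 read numbered 12580 to 13506 in 10 libraries, but 11022 and 11301 in day 270 marked replicates 2 and 3. In day 270 marked replicate 2, rRNA-like features took 30.0% of the reads, against 11.99% in day 60 marked replicate 2 and at most 3.18% elsewhere. Calls of members that were lost without this sparse pair of libraries are given with and without them. Defining plasma cell genes were present in every group, and 0 of 11 plasma cell markers were called different between marked and unmarked cells at either day or in the average over days by limma, edgeR, limma-voom or DESeq2, with 0, 1 and 2 at an unadjusted limma p under 0.05.

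Compared per kb of exon, Btla, Lag3 and Tigit were the most abundant members, with means over the 12 libraries of 54.4, 52.9 and 40.1 CPM per kb. Cd274 followed with 16.0 and Cd200 with 12.3 CPM per kb, then Ctla4 with 5.53 and Pdcd1 with 1.05. The order changed with the sort. In day 60 unmarked cells Tigit had the highest mean of the 7, with 72.1 CPM per kb, but in day 60 marked cells its mean was 17.7, below Btla at 62.7 and Lag3 at 43.6. At day 270, Tigit stood at 57.1 CPM per kb in unmarked and 13.6 in marked cells, where Cd274 stood at 16.1.

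**Figure D1:**
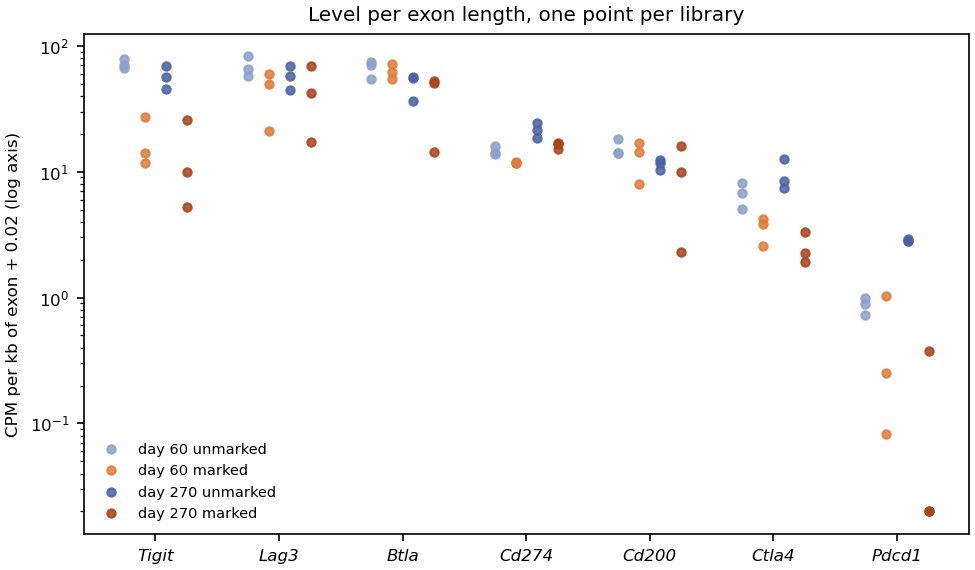
RNA level of the 7 genes in CPM per kb of exon (log axis, with 0.02 added so that libraries with no read can be drawn), 1 point for each of the 12 libraries, coloured by group. Tigit falls from the top of the set in unmarked cells towards the level of Cd274 and Cd200 in marked cells, and Pdcd1 is lowest throughout.

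Tigit, the receptor for CD155 (Pvr) and related nectins, had the smallest adjusted p of the 7 members in the average over days, and was lower in marked cells. Day 60 unmarked libraries had 72.8, 64.7 and 61.3 CPM (mean 66.2 ± 5.90 SD, n = 3), and day 60 marked libraries had 10.8, 25.1 and 12.9 CPM (16.2 ± 7.74, n = 3). At day 270, unmarked libraries had 63.9, 41.4 and 52.2 CPM (52.5 ± 11.3, n = 3) and marked libraries had 23.7, 9.13 and 4.76 CPM (12.5 ± 9.92, n = 3). Every unmarked library was above every marked library, also across days, while the 2 days overlapped within each population. The log2 fold change, marked against unmarked on the log2(CPM + 0.5) scale, was -2.09 ± 0.43 (SE) at day 60, or 0.236 times the unmarked level, with a limma adjusted p of 0.0612 (Benjamini-Hochberg over all 12704 genes tested), which missed the threshold of 0.05. At day 270 the change was -2.29 ± 0.43, with a limma adjusted p of 0.0223, and Tigit was called lower. Averaged over both days it was -2.19 ± 0.30 (95% interval -2.82 to -1.55), with a limma adjusted p of 7.08e-04, and marked cells were lower in 6 of 6 specimen pairs. In bulk RNA, fewer cells that carry a transcript and less of it per cell cannot be told apart.

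The average over days kept Tigit as a call in 24 of 24 alternative settings, with limma, edgeR or DESeq2 adjusted p between 2.01e-07 and 0.00496. The call of each single day was less settled. At day 60, 6 of 18 alternatives called it, among them the fit with the specimen as a replicate block (limma adjusted p = 0.0261), and the range of adjusted p was 0.00191 to 0.323. The authors' deposited table, which was made by their own fit, lists a log2 fold change of -2.07 with an FDR of 0.0163 for this comparison, in which 0.113% of its genes passed the FDR threshold as lower. At day 270, 13 of 19 alternatives called it, and the limma adjusted p rose to 0.166, 0.0706 and 0.120 without unmarked replicate 1, 2 and 3, respectively. With the sparse day 270 marked replicates 2 and 3 left out together, the change at day 270 was -1.11 (limma adjusted p = 0.434), where the 1 remaining marked library was assumed to vary like the other groups, and the average was -1.60.

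Pdcd1 encodes PD-1, the CD28-family receptor that recruits the phosphatase SHP-2 and binds PD-L1 and PD-L2. It was the rarest member, with 62 reads in all in day 60 unmarked libraries, 30 in day 60 marked, 189 in day 270 unmarked and 11 in day 270 marked. Day 60 unmarked libraries had 1.67, 1.37 and 1.86 CPM (mean 1.63 ± 0.244 SD, n = 3) and day 60 marked libraries had 1.94, 0.119 and 0.447 CPM (0.836 ± 0.971, n = 3). At day 270 the unmarked libraries had 5.34, 5.39 and 5.59 CPM (5.44 ± 0.131, n = 3), while the marked libraries had 0.690 CPM in replicate 1 and no read in replicates 2 and 3, where 3 reads would be 0.403 and 0.325 CPM. The day 270 unmarked libraries were the highest of all 12, and day 60 marked replicate 1 was above all day 60 unmarked libraries. At day 60 the log2 fold change was -0.91 ± 0.65 (limma adjusted p = 0.918). At day 270 it was -3.15 ± 0.65 (limma adjusted p = 0.0389), lower in 3 of 3 pairs, and in the average over days it was -2.03 ± 0.46 (limma adjusted p = 0.0276), lower in 5 of 6 pairs.

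These Pdcd1 values rest on few reads and on the pseudocount, with a change at day 270 of -2.43 with a pseudocount of 1 and -4.80 with 0.1. Of the alternatives, 7 of 19 kept the call at day 270 (adjusted p 0.0102 to 0.430) and 10 of 24 kept it in the average (0.00955 to 0.229). At day 270 the limma adjusted p was 0.190, 0.164 and 0.145 without unmarked replicate 1, 2 and 3, was 0.0644 and 0.0551 without marked replicate 2 and 3, and was 0.430 without both of those marked libraries. In the average it was 0.0842 and 0.0600 without day 60 marked replicate 2 and 3, between 0.0613 and 0.0853 without any 1 of the 6 unmarked libraries, and 0.113 without the sparse pair (-1.62 on the log2 scale). With the replicate block it was 0.0676 at day 270 and 0.0524 in the average.

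Ctla4 encodes the receptor that competes with CD28 for CD80 and CD86. Day 60 unmarked libraries had 19.0, 15.6 and 11.8 CPM (mean 15.5 ± 3.60 SD, n = 3) and day 60 marked libraries had 5.99, 8.92 and 9.83 CPM (8.25 ± 2.01, n = 3). At day 270, unmarked libraries had 19.7, 29.1 and 17.4 CPM (22.0 ± 6.19, n = 3) and marked libraries had 7.72, 5.24 and 4.44 CPM (5.80 ± 1.71, n = 3). As for Tigit, every unmarked library exceeded every marked library. The log2 fold change was -0.87 ± 0.40 at day 60 (limma adjusted p = 0.761) and -1.84 ± 0.40 at day 270 (limma adjusted p = 0.0463), where Ctla4 was called lower. Averaged over days it was -1.35 ± 0.28 (limma adjusted p = 0.0161), lower in 6 of 6 pairs. The averaged call held in 20 of 24 alternatives, and was lost without day 60 unmarked replicate 1 or 2 (limma adjusted p 0.0679 and 0.0526) or day 270 unmarked replicate 1 or 2 (0.0576 and 0.0759). The call at day 270 held in 8 of 19, with a limma adjusted p of 0.103 with the replicate block, 0.211, 0.260 and 0.129 without unmarked replicate 1, 2 and 3, 0.0518 and 0.0633 without marked replicate 2 and 3, and 0.398 without both of those.

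**Figure D2:**
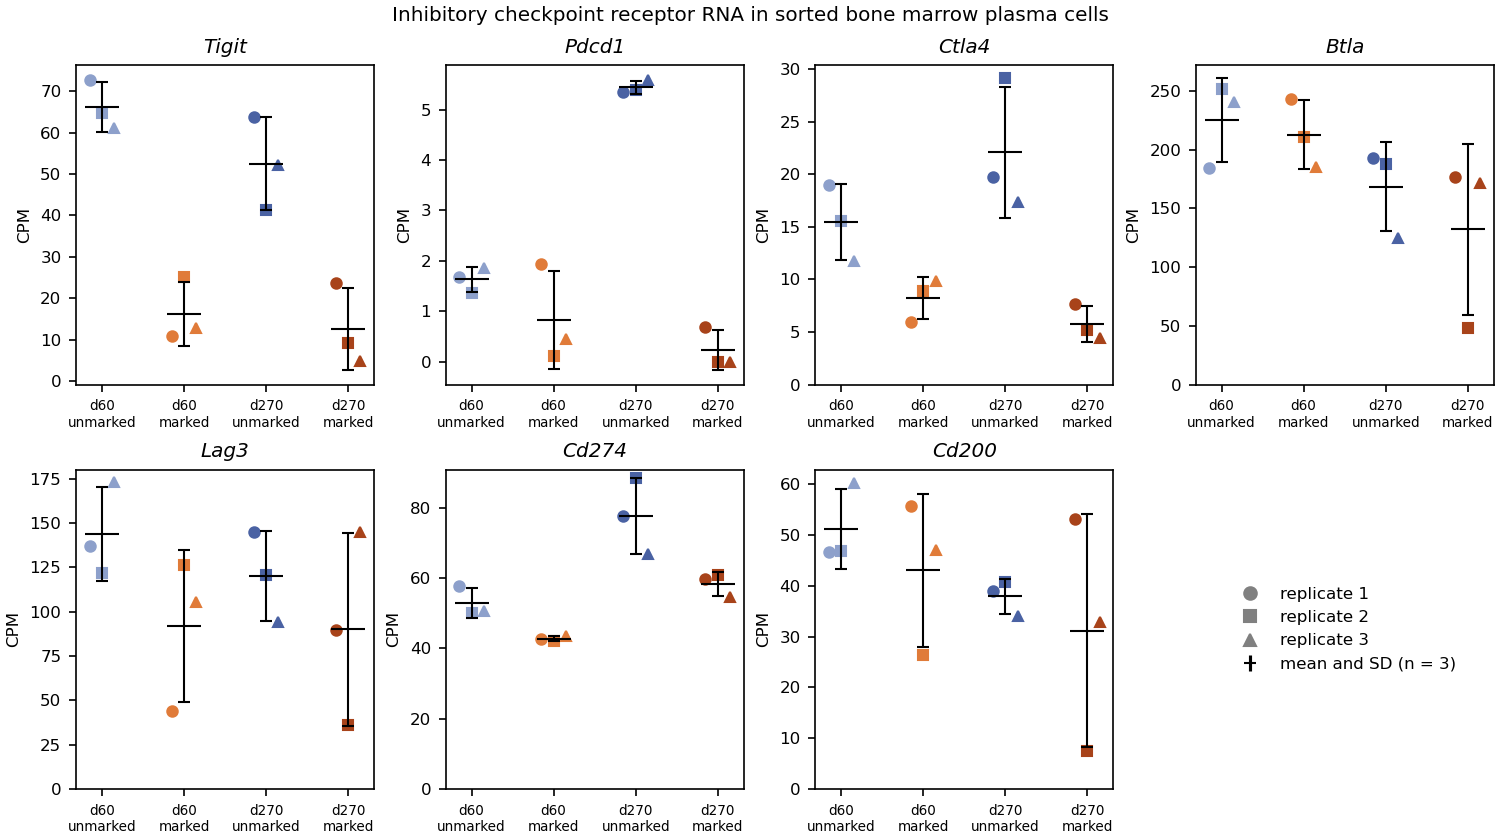
CPM of each of the 7 genes in the 12 libraries (points, shaped by replicate and coloured by group), with the group mean and SD (n = 3) as bars; each panel has its own linear axis. Tigit and Ctla4 are higher in all unmarked than in all marked libraries, day 270 unmarked cells have the highest Pdcd1 at 5.34 to 5.59 CPM, and Btla and Cd200 are lowest in day 270 marked replicate 2.

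Lag3 encodes a receptor for MHC class II and other ligands. Its levels were 137, 122 and 173 CPM in day 60 unmarked libraries (mean 144 ± 26.6 SD, n = 3) and 44.2, 126 and 105 CPM in day 60 marked libraries (91.9 ± 42.7, n = 3). At day 270 they were 145, 121 and 94.2 CPM in unmarked cells (120 ± 25.4, n = 3) and 89.4, 36.0 and 145 CPM in marked cells (90.1 ± 54.5, n = 3). The groups overlapped at both days, and marked cells were lower in 4 of 6 pairs. The log2 fold change in the average over days was -0.68 ± 0.28 (95% interval -1.28 to -0.09), with a limma adjusted p of 0.236, so Lag3 was not called.

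Btla, the receptor for HVEM (Tnfrsf14) on B and T cells, was the member whose marked and unmarked levels lay closest at day 60. Day 60 unmarked libraries had 185, 251 and 240 CPM (mean 225 ± 35.8 SD, n = 3), and marked libraries had 243, 210 and 185 CPM (213 ± 29.1, n = 3). At day 270, unmarked libraries had 193, 187 and 125 CPM (168 ± 37.8, n = 3) and marked libraries had 177, 48.1 and 172 CPM (132 ± 72.9, n = 3). The low value is that of replicate 2, the library with the large rRNA-like share, and the groups overlapped at both days. The log2 fold change was -0.08 ± 0.35 at day 60 (95% interval -0.81 to 0.65, limma adjusted p = 0.993) and -0.54 ± 0.35 at day 270 (-1.27 to 0.19, limma adjusted p = 0.4997). These intervals leave room for differences in either direction.

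Among the ligands, Cd274, which encodes PD-L1, differed little but evenly. Day 60 unmarked libraries had 57.8, 50.1 and 50.6 CPM (mean 52.8 ± 4.30 SD, n = 3) and marked libraries had 42.7, 42.0 and 43.4 CPM (42.7 ± 0.678, n = 3). At day 270 the values were 77.5, 88.5 and 66.7 CPM in unmarked cells (77.6 ± 10.9, n = 3) and 59.6, 60.9 and 54.5 CPM in marked cells (58.4 ± 3.38, n = 3). Within each day every marked library was below every unmarked library, and the pairs were lower in 6 of 6, by 0.22 to 0.54 on the log2 scale. The averaged log2 fold change was -0.35 ± 0.14 (95% interval -0.64 to -0.07), with a limma adjusted p of 0.206, and none of the 24 alternatives called it (0.107 to 0.550). Cd200, which engages an inhibitory receptor found mainly on myeloid cells, had 46.6, 46.8 and 60.3 CPM in day 60 unmarked libraries (51.2 ± 7.85, n = 3) and 55.7, 26.4 and 47.1 CPM in day 60 marked libraries (43.1 ± 15.0, n = 3). At day 270, Cd200 had 39.03, 40.8 and 34.0 CPM in unmarked cells (37.9 ± 3.55, n = 3) and 53.2, 7.52 and 32.9 CPM in marked cells (31.2 ± 22.9, n = 3). Its groups overlapped at both days, and the averaged log2 fold change was -0.48 ± 0.33 (limma adjusted p = 0.493). Without the sparse pair of day 270 marked libraries, the averaged change was 0.09 for Cd200 and 0.01 for Btla, so the sign of either value rests on those libraries.

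**Figure D3:**
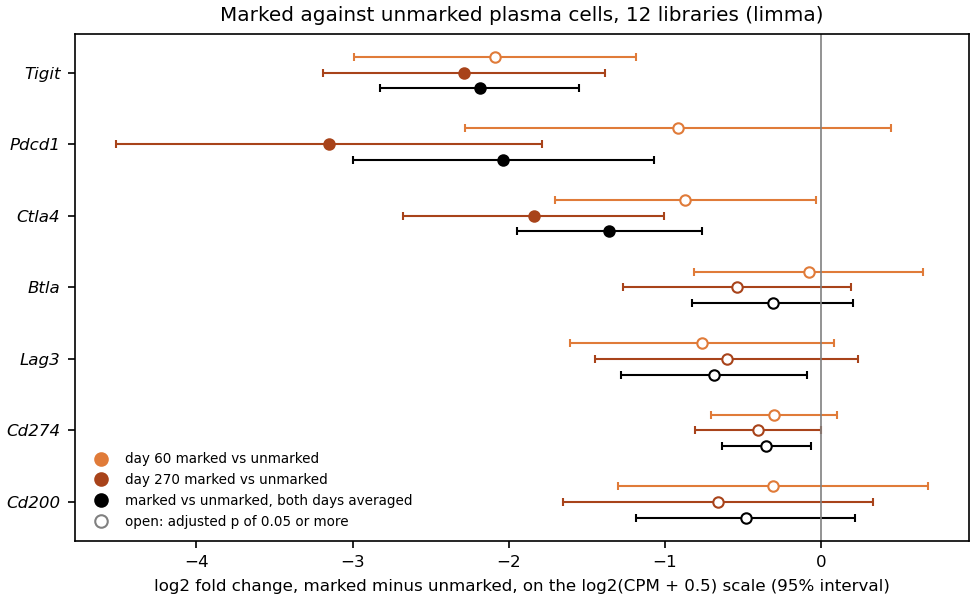
Log2 fold change of marked against unmarked cells for the 7 genes at day 60, at day 270 and averaged over both days (limma on log2(CPM + 0.5), 12 libraries); bars are 95% intervals and filled points have an adjusted p under 0.05. Filled points are those of Tigit, Pdcd1 and Ctla4 at day 270 and in the average, and no day 60 point is filled.

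The 7 members were chosen with earlier results of these data known. Setting them beside all genes therefore describes the set and does not test it. Read against all genes, limma called 0 of the 7 members at day 60, when 0.15% of the 12704 tested genes were called lower. At an unadjusted p under 0.05 there were 2 members at that day (Tigit and Ctla4), and the number called was 0 with edgeR (0.102% of all genes lower), 1 (Tigit) with DESeq2 (0.559%) and 1 (Tigit) with limma-voom (0.102%). At day 270, 3 of 7 members were called lower (Tigit, Pdcd1 and Ctla4) against 0.433% of all genes, with 3 by DESeq2 (1.28% of all genes lower), 1 (Tigit) by limma-voom (0.197%) and 0 by edgeR (0.189%). Pdcd1 passed the filter on low counts through the unmarked groups, where it is high. Its call and its lack of overlap are therefore given as values and not as support for the counts. In the average over days the same 3 were called lower by limma, against 1.5% of all genes, and 2 (Tigit and Ctla4) by limma-voom (1.41%), by edgeR (0.921%) and by DESeq2 (2.31%). No member was called higher in marked cells. In each of these contrasts 7 of 7 fold changes were negative, as were 63.9% of all genes at day 60, 69.2% at day 270 and 70.4% in the average, though with TMM scaling Btla stood at 0.05 at day 60. The members' median log2 fold change was -0.76 at day 60, -0.66 at day 270 and -0.68 in the average, beside -0.13, -0.22 and -0.18 over all genes. Scaling by total reads rather than TMM accounts for -0.12 of each of these medians over all genes. Marked and unmarked libraries did not overlap, with marked lower, for 3 of 7 members at day 60 (Tigit, Ctla4 and Cd274, against 11.3% of all genes). At day 270 this held for 4 of 7 (the same 3 and Pdcd1, against 12% of all genes). Marked cells were lower in 6 of 6 specimen pairs for Tigit, Ctla4 and Cd274, against 7.64% of all genes. Library numbers in the labels place the replicate 1 libraries of all 4 groups next to each other. Among the others all unmarked libraries come before all marked ones in that numbering, so the numbering and the marking cannot be told apart for replicates 2 and 3. Within the replicate 1 pairs at day 60 and day 270, the log2 difference was -2.70 and -1.41 for Tigit, -1.59 and -1.30 for Ctla4, and 0.17 and -2.30 for Pdcd1.

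**Figure D4:**
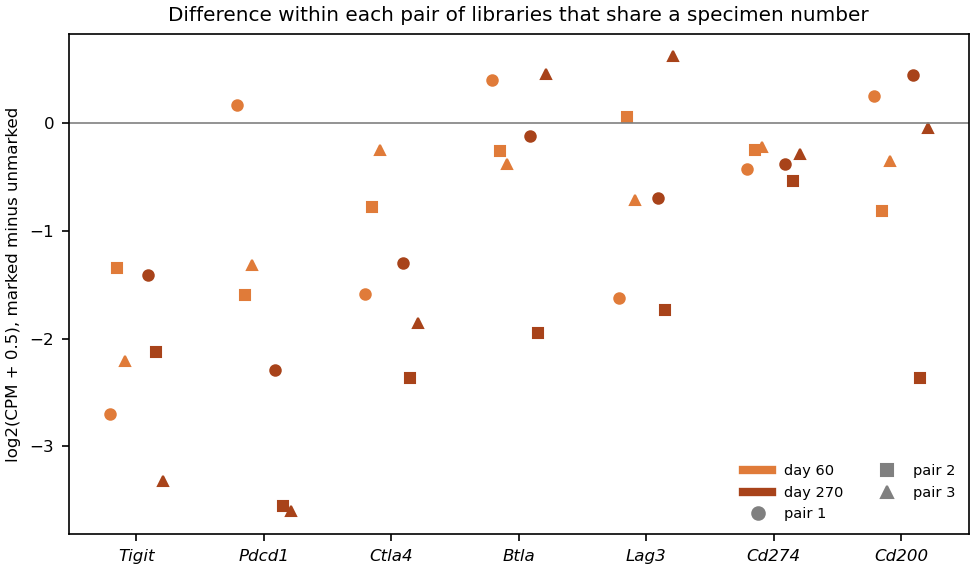
Difference in log2(CPM + 0.5), marked minus unmarked, within each of the 6 pairs of libraries that share a specimen number; orange points are day 60 and brown points day 270, and shapes are pair numbers. Tigit ranges from -3.33 to -1.35 with all pairs below 0, as are those of Ctla4 and Cd274, while Lag3, Btla and Cd200 each have pairs on both sides.

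Whether the gap between marked and unmarked cells changed with time was tested as an interaction. By limma, 0 of 7 members and 0% of all genes were called, and at an unadjusted p under 0.05 there was 1 member, Pdcd1, and 387 genes in all. edgeR and limma-voom called 0 genes and DESeq2 called 5 (0.0394% of all genes), none of them a member. The interaction for Pdcd1 was -2.24 ± 0.92 on the log2 scale (limma adjusted p = 0.9999), so its call at day 270 and its lack of a call at day 60 are not shown to differ. For Tigit the interaction was -0.20 ± 0.61, with a 95% interval from -1.48 to 1.08.

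Between days within a population, no member was called. In marked cells (0.0315% of all genes called in either direction by limma) Btla was 0.89 ± 0.35 lower on the log2 scale at day 270 than at day 60 and Cd274 was 0.45 ± 0.19 higher, with limma adjusted p of 0.418 and 0.480. Without day 270 marked replicate 2 Btla was 0.28 lower, and without the sparse pair it was 0.26 lower, where Cd274 was 0.48 higher. Those were the 2 members at an unadjusted p under 0.05, and edgeR, DESeq2 and limma-voom called 0 members, against 0.0157%, 0.952% and 0% of all genes. Libraries of the 2 days did not overlap for either gene, against 4.04% of all genes for the lower and 6.46% for the higher direction. In unmarked cells (0% of all genes called) Pdcd1 was higher at day 270 by 1.48 ± 0.65 and Cd274 by 0.54 ± 0.19 on the log2 scale, with a limma adjusted p of 1 for either. Both had an unadjusted p under 0.05, while the same 3 tools called 0 members, against 0%, 0.063% and 0% of all genes. Pdcd1 and Cd274 did not overlap between days in unmarked cells, with day 270 higher, against 10.4% of all genes, and Cd200 did not overlap with day 270 lower, against 2.39%. Cd274 was thus higher at day 270 than at day 60 in every library of its own population, while its adjusted p did not pass in either.

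A further contrast in the deposited data sets day 270 marked cells against day 60 unmarked cells, which also enter the comparisons above. There 1 of 7 members, Tigit, was called lower by limma (-2.64 ± 0.43, adjusted p = 0.00324), against 0.748% of all genes. The authors' deposited table for this contrast lists only genes past its FDR threshold, and holds Tigit with a log2 fold change of -2.50 and an FDR of 0.00418. Of the others, Ctla4 stood at -1.35 ± 0.40 (limma adjusted p = 0.105), Pdcd1 at -1.67 ± 0.65 (0.242) and Cd274 at 0.14 ± 0.19 (0.793). Without the sparse pair of marked libraries, Tigit stood at -1.46 (limma adjusted p = 0.134) and was not called.

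Limma called 0 of the tested ligands, partners and mediators of these genes in any of the 7 comparisons. For marked against unmarked cells averaged over days, the number at an unadjusted p under 0.05 was 0 of 1 for TIGIT partners, 1 of 5 for the CD28 and B7 family, 1 of 3 for the partners of BTLA, LAG3 and CD200 and 3 of 11 for phosphatases and adaptors, and limma-voom, edgeR and DESeq2 called 0 of each. Of 7 ligands and partner receptors listed for TIGIT, Pvr and Cd226 were found in the table by symbol. Genes entered there under an older symbol would be missed. Pvr, which encodes CD155, averaged 15.0 ± 1.46 CPM (SD, n = 3) in day 60 unmarked, 17.5 ± 1.95 in day 60 marked, 16.4 ± 8.48 in day 270 unmarked and 22.0 ± 5.51 in day 270 marked libraries, with no call. Cd226, the activating receptor that shares CD155 with TIGIT, had 17 reads in all, all of them in day 270 unmarked cells. Of the CD28 and B7 family, 5 of 8 listed genes were tested. Cd28, the costimulatory receptor that plasma cells use for survival signals, averaged 188 ± 25.2 CPM in day 60 unmarked, 164 ± 24.4 in day 60 marked, 235 ± 38.1 in day 270 unmarked and 159 ± 73.7 in day 270 marked libraries. Its averaged log2 fold change was -0.43 ± 0.18 (limma adjusted p = 0.242). Pdcd1lg2 (PD-L2) averaged between 23.9 and 38.5 CPM and Icosl between 14.4 and 25.0 CPM over the 4 groups. The median of the 5 averaged log2 fold changes of this family was -0.58, beside -0.18 over all genes.

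Of 7 partners listed for BTLA, LAG3 and CD200, 3 were tested. Tnfrsf14, the BTLA ligand HVEM, averaged 5.58, 5.15, 8.14 and 11.3 CPM in day 60 unmarked, day 60 marked, day 270 unmarked and day 270 marked libraries. Lgals3, a galectin that can bind LAG3, averaged 10.95, 7.24, 4.63 and 13.2 CPM in the same order of groups. Cd200r1, the CD200 receptor, averaged 1.62, 1.66, 2.47 and 0.266 CPM. At day 270 the log2 fold change was 1.32 ± 0.52 for Lgals3 and -2.04 ± 0.72 for Cd200r1 (limma adjusted p = 0.273 and 0.230). These were 2 of the 3 tested with an unadjusted limma p under 0.05 at that day, as had 1773 of 12704 genes. There limma, limma-voom, edgeR and DESeq2 called 0 of the 3. Of 12 phosphatases and adaptors that act behind inhibitory receptors, 11 were tested. The most abundant by CPM were Csk, the kinase that holds Src family kinases in check (227 to 291 CPM over the group means), Ptpn6 (SHP-1, 211 to 229 CPM) and Ptpn11 (SHP-2, 138 to 181 CPM).

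Of 20 symbols listed for other inhibitory receptors, 13 were tested, and Lilrb4 and Cd244 were each listed under an older and a newer symbol. Limma called Cd101 lower at day 270 (0.433% of all genes lower) and Siglecg and Cd101 lower in the average over days (1.5%). At day 270 limma-voom and edgeR called 0 of the 13 and DESeq2 called 1, and in the average they called 1, 1 and 2. Limma also called Cd101 lower in day 270 marked against day 60 unmarked cells (0.748% of all genes lower). The change there was -3.30 (limma adjusted p = 0.00775), and -2.37 without the sparse pair. Siglecg, the B cell lectin that restrains antigen receptor signalling, averaged 13.8 ± 1.44 CPM (SD, n = 3) in day 60 unmarked, 1.5 ± 0.173 in day 60 marked, 17.7 ± 1.72 in day 270 unmarked and 2.95 ± 2.57 in day 270 marked libraries. Its averaged log2 fold change was -2.91 ± 0.49 (limma adjusted p = 0.00375). Cd101, an immunoglobulin-family inhibitory protein, averaged 6.92 ± 3.83, 2.94 ± 0.0942, 5.38 ± 1.07 and 0.272 ± 0.471 CPM in the same order of groups, with an averaged change of -2.03 ± 0.42 (limma adjusted p = 0.0168). Without the sparse pair of day 270 marked libraries the averaged change was -2.40 for Siglecg (limma adjusted p = 3.3e-04) and -1.56 for Cd101 (0.0575), and that of Cd101 at day 270 was -2.14 (0.328). The 3 most abundant by CPM were not called in any of the 7 comparisons: Sirpa averaged 178 to 219 CPM, Fcgr2b, the inhibitory Fc receptor, 96.6 to 145 CPM and Pecam1 31.0 to 38.2 CPM.

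Markers of other cells moved with the sort to different degrees. Of 24 T and NK cell markers, 11 were in the table, the rest were not analysed here, and 0 of the 9 tested were called by limma. At an unadjusted limma p under 0.05 there were 3 of the 9 at day 60, 1 at day 270 and 1 in the average over days. In the average edgeR and limma-voom called 0, and DESeq2 called 1. Their summed level was 12.5 to 43.8 CPM in day 60 unmarked, 8.58 to 16.6 in day 60 marked, 32.5 to 38.1 in day 270 unmarked and 21.2 to 46.0 CPM in day 270 marked libraries. These sums overlapped between marked and unmarked cells at both days. Of the 11 genes, the mean CPM in marked cells was higher for 3 and lower for 8 at day 60, and higher for 4 and lower for 6 at day 270. Cd3d, Il7r and Gzma had 0 reads in day 60 marked libraries, Nkg7 and Gzma had 0 in day 270 marked and Nkg7 had 0 in day 270 unmarked libraries. Among those higher in marked cells were Lat (0.261 against 2.31 CPM, unmarked and marked) and Trac (0.261 against 1.53 CPM) at day 60. At day 270 they included Lck (5.33 against 9.91 CPM, with a marked SD of 11.7) and Cd3d (0.472 against 1.13 CPM). Lower in marked cells were, among others, Cd3g (5.64 against 2.285 CPM) and Cd8b1 (4.37 against 1.20 CPM) at day 60. At day 270 the lower genes included Cd4 (9.93 against 5.82 CPM) and Cd8b1 (6.60 against 3.44 CPM). The median log2 fold change of the 9 tested T and NK cell genes was -0.86 at day 60 and -0.76 at day 270.

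The summed level of genes of dividing cells did not overlap between marked and unmarked libraries of a day. Over 12 such genes it was 174 to 208 CPM in day 60 unmarked, 23.6 to 47.7 in day 60 marked, 143 to 189 in day 270 unmarked and 54.4 to 78.3 CPM in day 270 marked libraries. Of these, limma called 5 lower at day 60, 0 at day 270 and 9 in the average. Over all genes, 0.15%, 0.433% and 1.5% were called lower. At day 270, 8 had an unadjusted limma p under 0.05. There edgeR called 0 (0.189% of all genes lower), limma-voom 1 (0.197%) and DESeq2 3 (1.28%). Some had few reads in marked cells, such as Ccnb2 (235 reads in day 60 unmarked and 4 in day 60 marked libraries) and Tpx2 (296 and 10). Such genes can pass the filter on low counts through the unmarked groups, so these counts are given as values only. Sums of 16 B cell markers were 2240 to 2487, 1487 to 1618, 2360 to 2569 and 1276 to 1712 CPM in that group order. Limma called 2 of the 16 lower at each day, Cd79a and Fcmr, against 0.15% and 0.433% of all genes. The log2 fold change was negative for 14 of the 16 at day 60 and for 12 at day 270. Not all markers followed the sum. Mean CPM was higher in marked cells for Pax5 and Fcer2a at day 60. At day 270 it was higher for Cr2, Fcer2a, Spib, Bank1 and Ebf1. Summed erythroid markers were higher in marked cells at both days. They were 44.8 to 65.0 CPM in day 60 unmarked and 110 to 347 in day 60 marked libraries. At day 270 they were 36.1 to 166 in unmarked and 173 to 796 CPM in marked libraries. The sum of 13 myeloid and dendritic cell markers was 28.1 to 200, 27.4 to 499, 54.5 to 171 and 80.2 to 426 CPM. Of the 11 tested, limma, edgeR, limma-voom and DESeq2 called 0 between marked and unmarked cells at either day or in the average. In those comparisons 0 had an unadjusted limma p under 0.05. In marked cells between days 2 had such a p, and DESeq2 called 1. The part of these cells or cell states in the Tigit, Pdcd1 and Ctla4 differences was not tested.

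**Figure D5:**
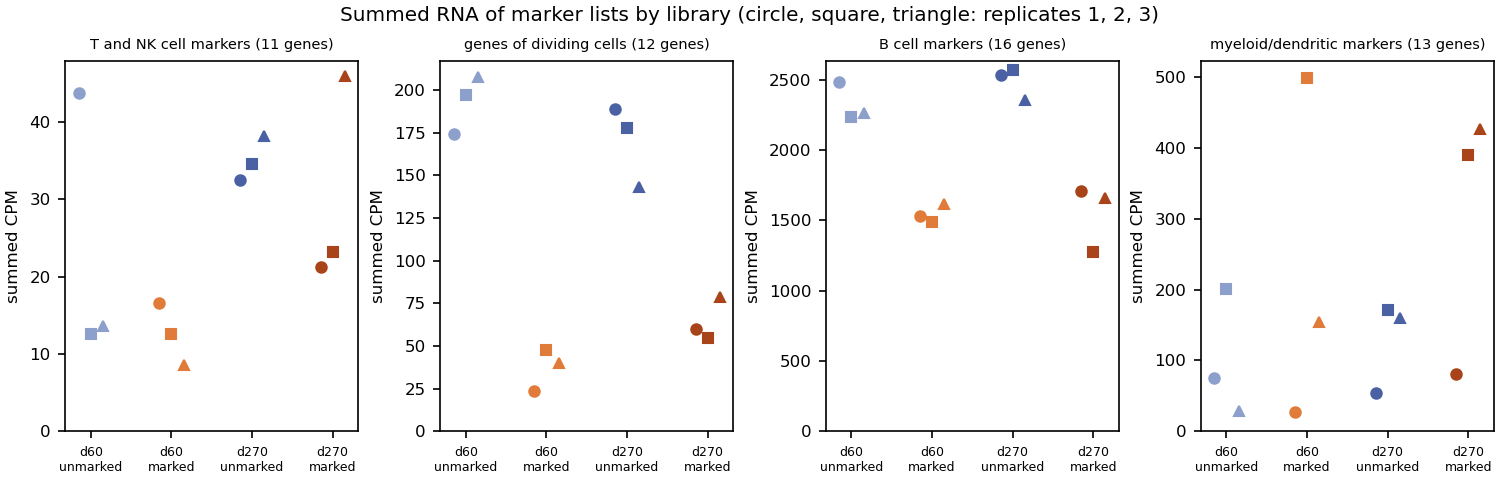
Summed CPM of T and NK cell markers, genes of dividing cells, B cell markers and myeloid or dendritic cell markers in the 12 libraries (points, shaped by replicate and coloured by group; linear axes from 0). The sums of dividing-cell genes and of B cell markers do not overlap between marked and unmarked libraries of a day, whereas those of T and NK cell markers and of myeloid or dendritic markers do.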

How the data were processed

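The authors deposited CPM per library in a table of all genes, per the file headers, beside their own log2 fold changes, p-values and FDR for day 60 marked against unmarked cells. They also deposited counts for 230 genes and a table of 265 genes for day 270 marked against day 60 unmarked cells. Per the submitters' processing notes the build was GRCm38 and limma was used. The aligner is not given in the sources used here, nor is the counter or annotation.

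Whole reads were recovered from CPM (151342 values under 1000 reads, 100% within 0.05 of a whole number). All 12 libraries entered limma 3.58.1 (R 4.3.3, trended prior) on log2(CPM + 0.5), with 1 coefficient per group and no block, since the table is in CPM. The filterByExpr function of edgeR 4.0.16 (minimum count 10) kept 12704 genes, all 7 members among them, and removed 1515. Pdcd1 passed through the unmarked groups. In 7 comparisons, p was adjusted by Benjamini-Hochberg over all genes tested, and genes under 0.05 were called. The script was tested on simulated data. Alternatives were other scalings, filters and pseudocounts, limma-voom, edgeR, DESeq2 1.42.0, quality weights, a replicate block, the compared libraries alone, and leaving out each library. The 95% intervals come from limma's spread between libraries, and floors cover counting error only.

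Libraries of 1 specimen had residual correlations of -0.0109 to 0.115 (6 pairs) and libraries of different specimens -0.104 to 0.0301 (12 pairs). The pairing comes from the specimen number in the labels. Named genes were all 7 members, partner-list genes called or among the 3 most abundant of their list, and the genes closest in pattern to each member. Members, lists and motifs were chosen with earlier results of these data known. Promoters are from RefSeq, which held 6 of the 7 members.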

Additional observations from a re-analysis of the deposited data

How the results depend on the processing

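Of 987 single-gene values recomputed over 25 settings, 892 kept their direction and side of the threshold, 49 lost a call, 8 gained one and 38 changed sign. At day 60 the number of members called was 0, and 1 (Tigit) with a pseudocount of 1, the replicate block, limma-voom, DESeq2, quality weights or the compared libraries alone. At day 270 it was 3, and 2 (Tigit and Ctla4) with a minimum mean CPM of 1, where Pdcd1 had an adjusted p of 0.0524, and 1 (Tigit) with a pseudocount of 0.1, the replicate block or limma-voom, and 0 with edgeR, with the compared libraries alone or with the sparse day 270 marked replicates 2 and 3 left out together (a setting chosen after seeing the data, as was rescaling without rRNA-like features and Jchain). Leaving out 1 library gave 0 to 3 members at day 270, 1 to 3 in the average and 1 to 2 for day 270 marked against day 60 unmarked. In that contrast the number was 1, and 2 (Tigit and Ctla4) with DESeq2, and 0 with the compared libraries alone or without the sparse pair. The replicate block changed no other call than those given beside Tigit, Pdcd1 and Ctla4. For marked against unmarked cells at each day, their average and the interaction, this block was the specimen. For the comparisons between days it was the replicate number, which joins different specimens. Fewer libraries leave fewer degrees of freedom; the cause of the other changes was not tested.

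In marked cells over days, Btla ranged from -1.21 to -0.28 with 1 library left out, the latter without day 270 marked replicate 2, and was -0.26 without the sparse pair. Signs changed mostly for values near 0. Btla at day 60 was 0.0499 with TMM, 0.0389 with limma-voom, 0.0649 with edgeR and 0.0566 with DESeq2. Without the sparse pair, Btla was 0.10 and Cd200 0.49 at day 270, Btla 0.0108 and Cd200 0.0912 in the average, and Cd200 0.0643 against day 60 unmarked. Marked cells over days then gave 0.63 for Tigit, 0.0787 for Pdcd1, 0.0932 for Lag3 and 0.37 for Cd200, and the interaction gave 0.98 for Tigit, 0.18 for Btla and 0.79 for Cd200. The Tigit interaction was 0.0427 with limma-voom and 0.0096 with quality weights, which gave -0.0461 for the Lag3 interaction, 0.43 for the Cd200 interaction and 0.0620 for Cd200 in marked cells over days. Leaving out 1 library, ranges that crossed 0 were, at day 60, -0.22 to 0.0185 for Btla and -0.52 to 0.0099 for Cd200, and at day 270, -0.86 to 0.0770 for Btla and -1.23 to 0.14 for Cd200. For the interaction they were -0.79 to 0.31 for Tigit, -0.30 to 0.71 for Lag3, -0.20 to 0.0003 for Cd274, -0.78 to 0.16 for Btla and -0.92 to 0.45 for Cd200, and in marked cells over days -0.57 to 0.44 for Lag3 and -1.35 to 0.0259 for Cd200.

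Depth limits Pdcd1 most: the day 270 marked libraries hold 11 of its reads in all, and no read in 2 of 3. The annotation, strand setting and sort gates behind the counts are not stated in the sources used here.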

Other observations

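The genes whose levels ran closest to each member over the 12 libraries were sought among 8602 genes of at least 5 CPM on average, by Pearson's r of log2(CPM + 0.5). These correlations are descriptions: the libraries share their groups, specimens and depth, and the value after removal of group means is given second, as r within groups. The closest to Tigit were Gimap5 (r = 0.958, within groups 0.886), Prc1 (0.951, within groups 0.798), Tbl2 (0.951, within groups 0.889), Dap (0.946, within groups 0.730) and Il2rb (0.944, within groups 0.794). Il2rb, the beta chain of the IL-2 and IL-15 receptors, averaged 20.5 CPM in day 60 unmarked, 3.26 in day 60 marked, 19.9 in day 270 unmarked and 0.878 in day 270 marked libraries. Prc1, a protein of the dividing cell's midzone spindle, averaged 9.58, 0.603, 9.23 and 1.15 CPM in the same order. Closest to Pdcd1 were Fgl2 (0.900, within groups 0.807), Natd1 (0.889, 0.606) and Pdha1 (0.887, 0.811), and closest to Ctla4 were Cwf19l2 (0.966, within groups 0.921), Hjurp (0.958, 0.806) and Erlec1 (0.936, 0.502). Fgl2, a fibrinogen-like protein that can be secreted, averaged 112, 44.1, 154 and 21.4 CPM in that order of groups.

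The members outside the called set had other neighbours. Closest to Lag3 were Dido1 (0.953, within groups 0.973), Aggf1 (0.947, 0.969) and Upf3a (0.946, 0.938), and closest to Cd274 were Camk2d (0.968, within groups 0.988), Arhgap6 (0.930, 0.560) and Dhx35 (0.915, 0.600). Btla was closest to Stt3b (0.966, within groups 0.954), Man1a (0.955, 0.936) and Arl4a (0.949, 0.947), and Cd200 to Cdkn2b (0.977, within groups 0.970), Snapc1 (0.958, 0.953) and Man1a (0.950, 0.941). Stt3b and Man1a, which act on N-linked glycans of secreted proteins, averaged 1232 and 1869 CPM in day 60 unmarked libraries. They averaged 1091 and 1691 CPM in day 60 marked, 985 and 1561 CPM in day 270 unmarked and 813 and 1232 CPM in day 270 marked libraries.

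Among the members, Btla and Cd200 had the highest correlation over the 12 libraries (r = 0.898, within groups 0.872), and both were lowest in day 270 marked replicate 2. Tigit and Ctla4 followed (0.863, within groups 0.505). For Pdcd1 with Ctla4 (0.813) and with Tigit (0.711) the value within groups was -0.097 and 0.114. Pdcd1 had no read in day 270 marked replicates 2 and 3 and 1 read in day 60 marked replicate 2. With so few reads and 12 libraries, the values within groups cannot show that a correlation is absent there.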
